A study of Bos taurus with 34 samples.

Results

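The genes described here are the small nucleolar RNA (snoRNA) and microRNA genes of a polyadenylated RNA data set from single bovine embryos. They were taken by symbol, as every gene whose name starts with SNOR or bta-mir in the deposited gene tables. The rule found 166 genes of 18826 listed in all, of which 156 stood in the blastocyst table, 43 in the morula table and 33 in both. By symbol they were 111 microRNA genes, 33 C/D box snoRNA genes (SNORD), 21 H/ACA box snoRNA genes (SNORA) and SNORC. SNORC goes against the label, since RefSeq lists it as a protein-coding gene; it held 26 reads in 5 blastocysts and is counted with the members only where all 166 are meant. The 54 snoRNA genes carried 29 distinct symbols, because several loci share 1 family name.

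snoRNAs are nucleolar RNAs, many of which guide chemical modification of ribosomal RNA. Among these guides, C/D box snoRNAs direct methylation of the ribose, and H/ACA box snoRNAs direct conversion of uridine to pseudouridine. In mammals most snoRNAs are cut out of introns of other genes, many of which encode ribosomal proteins. MicroRNAs are cut from hairpin precursors by DROSHA and DICER1 and, bound to an AGO protein, repress messenger RNAs. Mature forms of both classes lack a poly(A) tail, and the libraries were made with a stranded mRNA kit that selects poly(A), and the values count fragments that overlap these loci. Whether these are mature small RNAs or longer transcripts was not tested.

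Each library came from 1 embryo. There were 9 knockout blastocysts (7 female and 2 male), 17 control blastocysts (8 female and 9 male), 4 knockout morulae (3 female and 1 male) and 4 control morulae (1 female and 3 male). The knockout is called CSF2KO in the sample titles and a deletion of CSF2RA, a receptor subunit for the cytokine CSF2, in the title of the series; nothing further is said there of the allele or of the controls. Every sample, control or knockout, also carries a protocol entry for added recombinant Wnt5A and one for culture in vitro, whereas the title of the series speaks of expression in utero, and this was not settled. Nothing says whether embryos shared parents or a flush, so p-values measure only the spread between these embryos.

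Recovered reads per library ran from 44879 to 988622 in knockout blastocysts, from 115512 to 17598170 in control blastocysts, from 43679 to 124603 in knockout morulae and from 93980 to 1526852 in control morulae. CSF2RA itself held 4 reads in 3 of 26 blastocysts, 2 of them in knockout 57, so the labels could not be checked by the targeted gene at this depth. Of 10 markers of the preimplantation embryo 9 were listed, at summed levels of 2011 to 35948 RPM (reads per 1000000 recovered reads of the library) in blastocysts, where control 12 was lowest and the genotypes overlapped. In morulae they summed to 605 to 10617 RPM in the 4 knockouts and 16695 to 24107 RPM in the 4 controls, so these groups did not overlap. Summed markers of cumulus and granulosa cells, oviduct epithelium, leukocytes, erythrocytes and fibroblasts each stayed at or under 138 RPM in every library. Of these lists the erythrocyte list reached that highest sum, in a control morula. Control blastocyst 12 stood apart, with 2791 genes detected and 35.8% of reads from mitochondrially encoded genes. Knockout blastocyst 57 was the shallowest of its stage, and knockout morulae 21 and 49 had the fewest detected genes of theirs, 4392 and 4956. The tests, the gene lists and several medians are also given without these 4 libraries.

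One symbol held nearly all the reads of these genes. Of 887121 blastocyst reads in members, 885758 lay in 2 loci that the table both names bta-mir-2887-1, and the other 154 members shared 1363. In morulae these loci held 97369 of 97533 member reads, and the other 41 members 164. The first locus (ENSBTAG00000054661) is on chromosome 2 of ARS-UCD1.2, at 121575106 to 121575160, with a length of 54 bases in the table. The second (ENSBTAG00000054257) has the same length and lies on chromosome 27, at 6217555 to 6217609. RefSeq, whose table uses the later assembly ARS-UCD2.0, lists MIR2887-1 on chromosome 2 and calls the copy on chromosome 27 MIR2887-2. Because 2 loci share a symbol in the table and reads of near-identical copies may have been split or dropped in counting, the level of each copy is uncertain.

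The chromosome 2 copy lies inside a gene without a symbol (ENSBTAG00000051364, 121569848 to 121575674, 5826 bases). That gene held 383164 blastocyst reads and 40822 morula reads, whereas the 54 bases of the microRNA held 843826 and 92172. Per kilobase of genomic span, the microRNA held 238 times the reads of the gene around it in blastocysts and 244 times in morulae. The chromosome 27 copy lies in no other gene of the tables. A 5.8S ribosomal RNA gene (ENSBTAG00000048608, 6222648 to 6222800) starts 5039 bases after its end, with 14842 blastocyst reads and 1890 morula reads. RefSeq places MIR2887-2 between the pseudogene LOC112444681 and the ribosomal RNA gene LOC112444653, followed by RN18S1, which encodes 18S ribosomal RNA.

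The chromosome 2 copy took between 1.78% and 8.27% of reads in the 9 knockout blastocysts, with a median of 4.47%. In the 17 control blastocysts it took between 0.0334% and 4.87%, with a median of 3.66%. Without knockout 57 and control 12 the medians were 4.51% and 3.72%. The groups overlapped, since 2 knockouts lay above every control and no knockout lay under 1.78%, where 6 controls lay. The highest knockout was embryo 75, at 8.27% (95% Wilson interval 8.21 to 8.32, which like all such intervals here covers counting error only), and the lowest control was embryo 12, at 0.0334% (0.0298 to 0.0374). In the knockout morulae the shares were 2.67% (embryo 1), 2.70% (embryo 5), 1.83% (embryo 21) and 1.85% (embryo 49). The control morulae had 4.25% (embryo 39), 5.29% (embryo 41), 0.00675% (embryo 54) and 4.11% (embryo 73). Thus 3 control morulae lay above all 4 knockouts and 1 lay far below them. Control morula 54 held 23 reads of the chromosome 2 copy among 340731 (interval 0.0045 to 0.0101%) and none of the chromosome 27 copy, which allows up to 8.80 RPM.

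**Figure D1:**
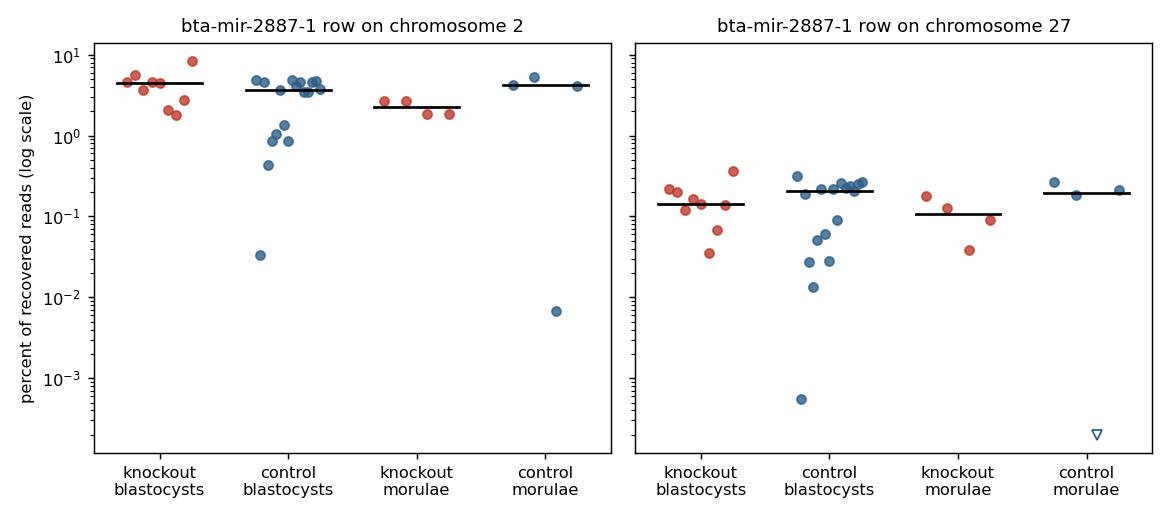
Share of recovered reads in the bta-mir-2887-1 loci on chromosome 2 and chromosome 27, in percent on a log scale, with 1 point per embryo and a black line at each group's median. The open triangle marks control morula 54, which had no read at the chromosome 27 locus and cannot be placed on a log scale; control blastocyst 12 is the lowest blastocyst in both panels.

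Per 100 reads of the chromosome 2 copy, the chromosome 27 copy had 1.70 to 5.10 reads in knockout blastocysts and 1.55 to 7.01 in controls, and 2.10 to 6.80 and 0 to 6.28 in the morulae. The gene around the chromosome 2 copy had 33.5 to 106 reads per 100 in knockout blastocysts, where embryo 57 gave the highest value and the next was 52.3. In control blastocysts it had 5.70 to 68.0, where embryo 12 gave the lowest. The 5.8S ribosomal RNA gene took 0.0298% to 0.140% of reads in knockout blastocysts and 0.0149% to 0.0733% in controls. Its highest blastocyst was knockout 75, as for bta-mir-2887-1, and its lowest morula was control 54, at 0.00646%. Its lowest blastocyst was control 36, at 0.0149%, whereas control 12, the lowest for bta-mir-2887-1, had 0.0204%. What part ribosomal RNA has in the bta-mir-2887-1 reads was not tested.

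With their short length and many reads, these loci took over 50% of the summed length-scaled values in 21 of 26 blastocyst and 6 of 8 morula libraries. The 2 loci made up a median of 79.2% of the summed RPKM of a blastocyst library, from 1.38% to 89.0%, and a median of 70.7% in morulae, from 0.595% to 83.4%. RPKM is reads per kilobase of gene and per 1000000 reads of the library, and here the kilobases are those of the genomic span. The library sizes behind the deposited values were not the recovered reads. In knockout morula 21, with 85929 recovered reads, 1 read in 70 bases was worth 364 RPKM, but 321 in knockout morula 49, with 43679. The genotype tests used these deposited values. One read in a gene of 70 bases was worth 0.920 RPKM in the deepest blastocyst library and 236 RPKM in the shallowest. In morulae it was worth 7.71 to 364 RPKM.

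All other members were thinly read. Among the 156 blastocyst members, 34 had 1 read over all 26 embryos, 99 had at most 5 and 39 had at least 10. 18 were read in at least 9 blastocysts, and 55 were read in 1 embryo only. None of those 55 was in control 37, the deepest library, which held 505 of the 1363 reads. In the table as a whole, 9 of the 850 genes read in 1 blastocyst were read there. Every gene of the blastocyst table reached at least 0.568 RPM in 1 embryo, whereas 1 read in control 37 is 0.0568 RPM; a member read once or a few times in that embryo alone could not have reached it. In morulae the lowest such peak was 1.31 RPM, and 9 members besides bta-mir-2887-1 were read only in control 39, the deepest of them. What was listed therefore depended on the depth of the embryo that held the reads.

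bta-mir-371, of a cluster that in human and mouse is known from embryonic stem cells and early embryos, had the most reads after bta-mir-2887-1. It lies on chromosome 18 (ENSBTAG00000036392, 60903171 to 60903249), and RefSeq places it within NLRP12. It held 124 blastocyst reads in 17 embryos, of which 82 were in control 37. Among the knockouts it had 1 read in embryo 4, 2 each in 17, 50 and 59, and 3 in embryo 75. The other 11 controls with reads had 1 to 6. In RPM this was 2.85 ± 3.57 (SD, n = 9) in knockouts and 2.35 ± 2.31 (SD, n = 17) in controls, so the SD was about as large as the mean. In morulae it had 10 reads in control 39, 3 in control 54, 1 in knockout 1 and none in the other 5. Control 54, which had nearly no bta-mir-2887-1, thus carried bta-mir-371.

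The microRNA genes with the next most reads were bta-mir-2469, bta-mir-1843, bta-mir-12034, bta-mir-11997 and bta-mir-10181. bta-mir-2469 (chromosome 8, 11522207 to 11522273) lies within TOPORS, a ubiquitin and SUMO ligase gene, and held 65 reads in 9 blastocysts, 51 of them in control 37. bta-mir-1843 (chromosome 4, 92988123 to 92988191) held 55 reads in 13 blastocysts, with 19 in control 37 and 8 in control 66. bta-mir-12034 (chromosome 13, 38239543 to 38239614) lies within SNX5, a sorting nexin gene, and held 35 reads in 8 blastocysts, 24 of them in control 37. bta-mir-11997 (chromosome 21, 27713492 to 27713580) held 34 reads in 14 blastocysts, more embryos than any of the other four. bta-mir-10181 (chromosome 2, 129146487 to 129146577), which RefSeq places within ELOA, an elongin subunit gene, held 33 reads in 10 blastocysts. In morulae bta-mir-1843, bta-mir-12034 and bta-mir-10181 had 7 reads each, of which control 39 held 6, 6 and 5.

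bta-mir-30a showed the opposite distribution and is named after its values were seen. All 27 of its reads lay in control 12, in which it was the only member read besides bta-mir-2887-1.

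Among snoRNAs, SNORD96 (ENSBTAG00000042936, chromosome 7, 40373865 to 40373943) had the most reads. It lies within RACK1, which encodes a protein of the small ribosomal subunit. It held 62 reads in 14 blastocysts, 29 of them in control 37, and 2 to 3 in each of knockouts 3, 50, 59 and 75. In morulae it had 15 reads in control 39 and 1 in knockout 1. The SNORD24 locus on chromosome 16 (ENSBTAG00000042974, 55237171 to 55237252) held 56 reads in 16 blastocysts. Of the 2 SNORD24 loci on chromosome 11, within the ribosomal protein gene RPL7A, ENSBTAG00000043383 (104256297 to 104256371) held 25 reads in 12. SNORD31 (chromosome 29, 41155768 to 41155835) held 39 reads in 10 blastocysts, 21 of them in control 37. SNORD16 (chromosome 10, 13359971 to 13360068), within RPL4, held 30 reads in 9 blastocysts, 16 of them in control 37, and 4 of its 6 morula reads lay in knockout 1. Loci with the same symbol may share reads through near-identical sequence, so their single values are uncertain.

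Among the H/ACA box genes, SNORA73 led with 3 loci of 203 bases each on chromosome 2, and 65 blastocyst reads in all (29, 22 and 14). RefSeq lists SNHG3, a noncoding snoRNA host gene, beside RCC1 in this stretch. The locus ENSBTAG00000050344 (124916469 to 124916672) held 22 reads in 10 blastocysts and none in control 37. Knockouts 31, 50, 59 and 75 had 2, 2, 1 and 4 of these reads, and no control had more than 5.

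**Figure D2:**
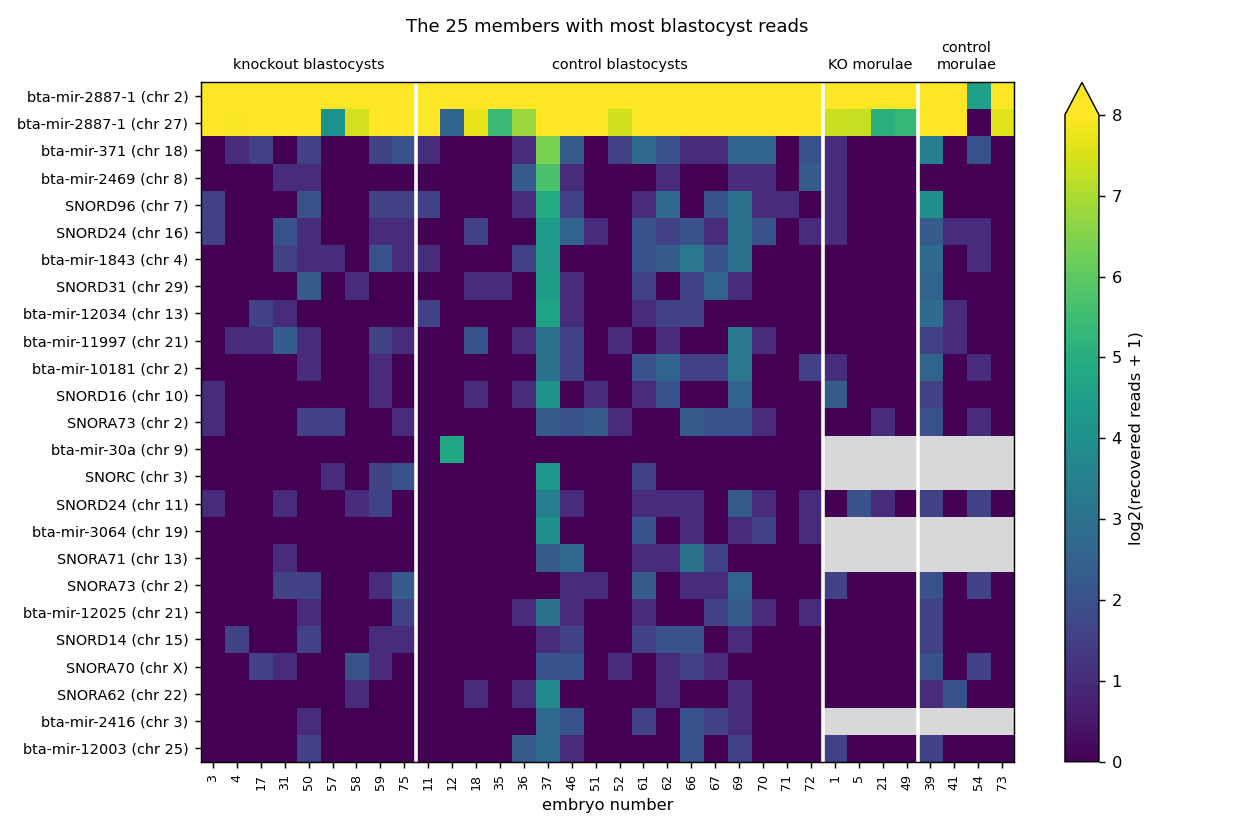
Recovered reads, as log2(reads + 1), of the 25 members with most blastocyst reads in all 34 embryos, where yellow cells are at or above 8 and grey cells mark genes not listed in the morula table. bta-mir-2887-1 fills the top lines in nearly every embryo, whereas most other cells hold 0 to 3 reads outside control blastocyst 37 and control morula 39.

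Most members lay inside other genes. Of the 166, 112 had their span wholly within that of another listed gene, namely 30 of 33 C/D box snoRNAs, 11 of 21 H/ACA box snoRNAs and 71 of 111 microRNAs. Of the 41 nested snoRNAs, 19 lay in 9 ribosomal protein genes, and 1 of the nested microRNAs lay in a ribosomal protein gene. RefSeq matched 109 microRNAs by symbol and chromosome and none of the snoRNAs. Of the 40 microRNAs in no listed gene, 22 lay within a RefSeq gene. Among the hosts in the tables were genes of translation and RNA handling, such as RACK1, EIF4A2 (a helicase of translation initiation) and DDX5 (an RNA helicase), and HSPA8 (a chaperone).

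Several hosts held a group of snoRNAs. A gene without a symbol on chromosome 29 (ENSBTAG00000054053, 41155211 to 41158366) held SNORD25, SNORD26, SNORD27, SNORD29 and SNORD31, with 66 reads in all against 370 counted for the host. RPL7A held 2 SNORD24 loci and 2 SNORD36 loci, with 41 reads. RPL4 held SNORD16 and 2 SNORD18 loci with 34 reads, RPL13A held 2 SNORD33 loci and SNORD34 with 37, and HSPA8 held 3 SNORD14 loci with 33. These hosts held far more reads than their snoRNAs, at 31770 blastocyst reads in RPL7A, 28083 in RPL4, 25037 in RPL13A and 68031 in HSPA8. Because poly(A) was selected, these reads do not measure the relative abundance of a host and its snoRNAs.

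Per kilobase of span, nested snoRNAs were mostly read less than their hosts in blastocysts, with 33 of 41 under a ratio of 1 (median 0.0353). Nested microRNAs besides bta-mir-2887-1 were split, with 28 of 63 under 1 and 35 at or above it (median 1.29). The members below had at least 10 reads, a choice that favours a high ratio. Among the 16 nested snoRNAs with at least 10 blastocyst reads, the ratio of member to host ran from 0.00698 to 4.96 with a median of 0.0442, and was under 1 in 14. The exceptions were SNORD25 at 1.61 and SNORD31 at 4.96, both in the weakly read host on chromosome 29. SNORD96 stood at 0.147 of RACK1, SNORD16 at 0.0531 of RPL4 and SNORD24 at 0.0353 of RPL7A. Among the 7 nested microRNAs with at least 10 reads besides bta-mir-2887-1, the ratio ran from 0.341 to 20.9 with a median of 4.91, and was under 1 for bta-mir-3064 in DDX5. bta-mir-2416 in MACF1, a giant cytoskeletal linker gene, stood at 20.9, and bta-mir-11978 in COBLL1 at 13.6. bta-mir-2469 stood at 6.79 of TOPORS, and at 2.69 without control 37. The span includes introns, which lowers the reads per kilobase of long hosts, and a locus is listed only where it was read, so 1 read gives a high ratio in a weakly read host. Whether counting used the strand is not given in the sources used here. It therefore cannot be told whether reads counted for a nested member came from the transcript of its host.

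**Figure D3:**
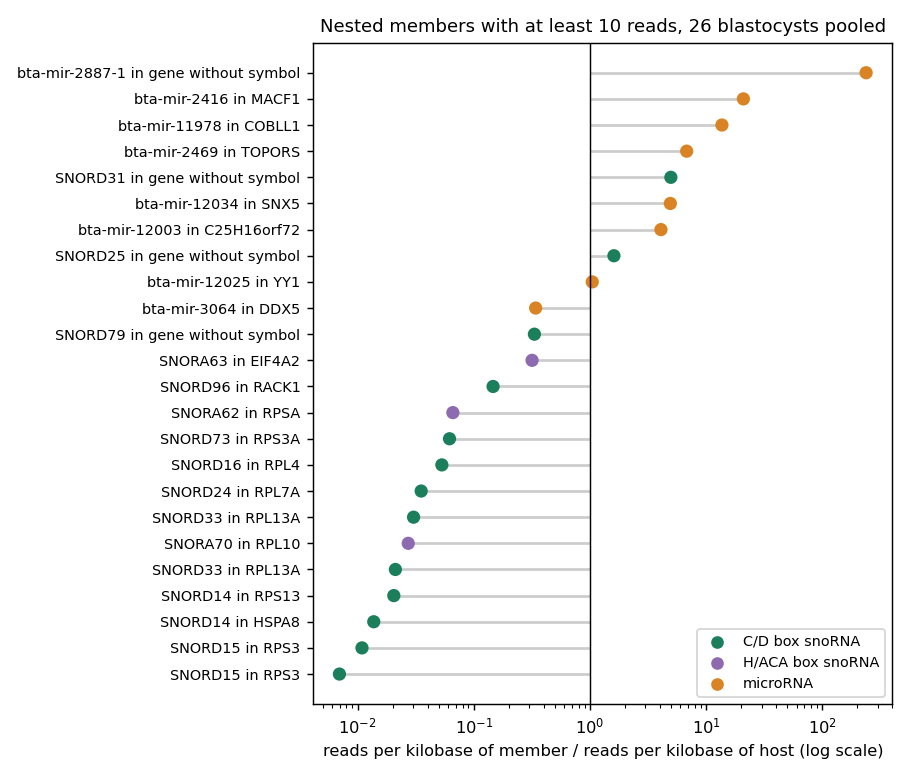
Reads per kilobase of span of each nested member divided by those of its host, on a log scale, for members with at least 10 reads over the 26 blastocysts. Members of ribosomal protein genes lie between 0.00698 and 0.0661, whereas 7 of the 8 microRNAs shown lie above 1, and bta-mir-2887-1 at 238.

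How many members an embryo showed followed its depth. Between 7 and 38 members were read in knockout blastocysts (median 10) and between 3 and 77 in controls (median 22), and in morulae between 2 and 12 in knockouts (median 5.5) and between 4 and 31 in controls (median 12.5). To set embryos side by side, the number expected if each library had held as few reads as the smallest of its stage was computed. That number was 3.50 to 7.0 in knockout blastocysts (median 4.67) and 1.98 to 5.34 in controls (median 3.88). In morulae, it was 2.0 to 8.18 in knockouts (median 3.85) and 3.18 to 4.67 in controls (median 3.69). The groups overlapped in both stages, and at this depth the control medians were not the higher ones. At 100000 reads the median was 7.45 in 8 knockout blastocysts and 6.05 in controls, whereas the 1 knockout morula of that depth had 4.60, under the 6.14 to 7.66 of 3 control morulae. The lowest value belonged to control blastocyst 12, and without it and knockout 57, which had the highest, the blastocyst ranges were 2.29 to 5.34 in controls and 3.50 to 4.86 in knockouts.

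**Figure D4:**
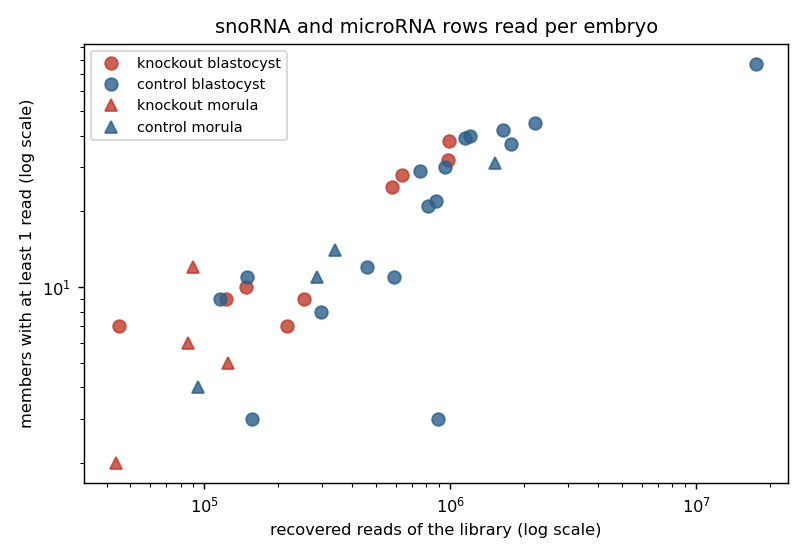
Number of members with at least 1 read against the recovered reads of the library, both on log scales, with 1 point per embryo. Counts rise with depth in both genotypes and stages, and control blastocyst 12, with 3 members at 893152 reads, lies furthest below the rest.

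In RPM, members other than bta-mir-2887-1 came to 35.3 to 134 in knockout blastocysts (median 61.3) and 6.38 to 86.6 in controls (median 43.1). Knockout 57 gave the highest of these values from 6 reads, and the other 8 knockouts lay between 35.3 and 67.9, with a median of 58.3 beside 44.2 in controls without embryo 12. In morulae, they came to 0 to 189 in knockouts (median 49.2) and 31.9 to 65.5 in controls (median 53.7). Without knockouts 21 and 49, knockout morulae 1 and 5 had 189 and 40.1. The 4 ranges overlapped. snoRNAs made up 13.9 to 54.3 RPM in knockout blastocysts and 0 to 51.9 in controls, and microRNAs besides bta-mir-2887-1 made up 11.8 to 66.8 and 0 to 60.2. The blastocyst and morula tables were normalized apart and differ in depth, so stages are only set side by side. For the 31 genes listed in both besides bta-mir-2887-1, the median was 36.96 RPM in knockout blastocysts, 22.7 in control blastocysts, 49.2 in knockout morulae and 45.3 in control morulae. Only 43 members were listed in morulae, beside 156 in blastocysts, and the lowest peak of a listed gene was 1.31 RPM beside 0.568. The choice of these genes therefore favours those well read in morulae, and their medians do not measure a difference between stages. The 123 members listed only in blastocysts held 540 reads, and the 10 listed only in morulae, all microRNAs, held 20.

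The comparison of knockouts with controls asks which of these genes differ with the labelled genotype. In blastocysts, limma-trend on log2(RPKM + 1) with sex as a term tested 6283 genes, and 0% of them passed an adjusted p of 0.05; at an unadjusted p under 0.05, 1.8% of genes were higher and 0.955% lower. The filter, an RPKM of at least 1 in 9 embryos, kept 18 of 156 members. None of the 18 passed, and none had an unadjusted p under 0.05. Their median log2 change was 0.46, with 11 higher and 7 lower, beside 0.08 over all genes tested, of which 62.3% were higher. Without control 12 and knockout 57 these medians were 0.07 and -0.02. By voom on recovered reads the 18 members that passed its own filter were all higher, with a median of 0.95 beside 0.48 over all genes. Voom adds a fixed part of a read to every count, so an unread gene gets a higher value in a shallower library. Knockout blastocysts were shallower, with a median of 254758 recovered reads beside 878069 in controls. How far depth moved the voom values was not tested, so they are not read as a genotype difference.

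The member with the smallest p was bta-mir-2887-1 on chromosome 2, at a log2 change of 0.98 ± 0.66 (SE; limma-trend p = 0.149, Benjamini-Hochberg adjusted p = 0.994). On that log2 scale its mean was 19.38 ± 0.78 (SD, n = 9) in knockouts and 18.50 ± 1.87 (SD, n = 17) in controls. The copy on chromosome 27 had 0.77 ± 0.82 and the unnamed gene around the chromosome 2 copy 1.13 ± 0.84. Without control 12 and knockout 57 these 3 values were 0.55, 0.34 and 0.34. SNORA73 (ENSBTAG00000050344) had 0.96 ± 0.70, with reads in 4 of 9 knockouts and 6 of 17 controls. bta-mir-11997 had 1.26 ± 1.08, with reads in 6 of 9 and 8 of 17. The smallest p among lower members belonged to bta-mir-10181, at -1.15 ± 0.90 and reads in 2 of 9 knockouts and 8 of 17 controls. SNORD16 had -0.88 ± 0.94 and SNORD31 had -0.75 ± 1.13. SNORD96, bta-mir-371, bta-mir-2469 and SNORD24 on chromosome 16, the other members with most reads, had 0.03 ± 1.13, -0.29 ± 1.15, -0.28 ± 0.91 and -0.31 ± 1.11.

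**Figure D5:**
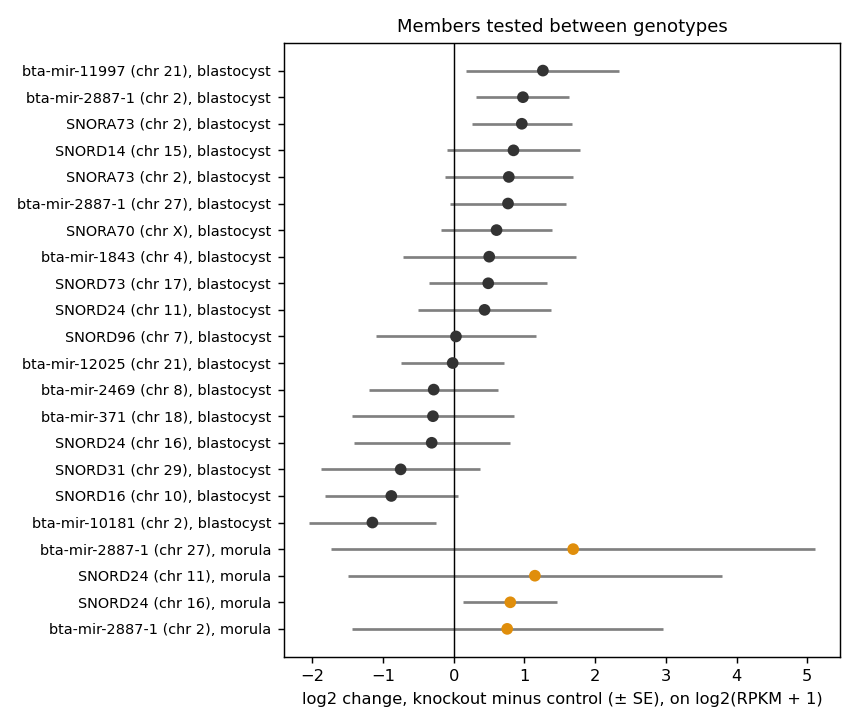
Log2 change between knockouts and controls on log2(RPKM + 1), with its SE, for the 18 members tested in blastocysts (black) and the 4 tested in morulae (orange). The intervals of 1 SE cross 0 for most members, and none of the 22 changes passed the test.

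In morulae the same test covered 5021 genes, of which 0% passed; at an unadjusted p under 0.05, 0.896% were higher in knockouts and 5.97% lower. It kept 4 of 43 members (RPKM of at least 1 in 4 embryos), and none passed or had an unadjusted p under 0.05. Their median was 0.97, beside -0.34 over all genes tested, and 1.199 beside -0.06 without knockouts 21 and 49. Single embryos reversed it: the median was -0.27 without knockout 1 and -0.06 without control 54. SNORD24 on chromosome 16 had 0.80 ± 0.67 from 1 read in knockout 1 and 6 in controls, and its fitted sign is opposite to the means of its groups, which differ in their makeup by sex. Its mean log2 value was 1.66 ± 3.32 (SD, n = 4) in knockouts and 3.78 ± 2.54 (SD, n = 4) in controls, and without a sex term its change was -2.12. SNORD24 on chromosome 11 had 1.15 ± 2.65. bta-mir-2887-1 had 0.76 ± 2.20 on chromosome 2 and 1.69 ± 3.42 on chromosome 27. Without control 54 these last 2 values were -0.84 and -0.85, and without knockout 1 they were -0.55 and -1.06, so their direction rested on each of these embryos.

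The authors' deposited table of the same comparison calls 0.0813% of 18442 genes at an FDR under 0.05 in blastocysts and 0.181% of 14878 in morulae, and no member in either. The lowest FDR of a member in the authors' deposited table was 0.0588 in blastocysts, for bta-mir-2338, and 0.328 in morulae, for bta-mir-2454. At an unadjusted p under 0.05, the authors' deposited table has 19 of 156 members higher in knockout blastocysts and 4 lower, where 4.09% and 3.62% of all genes are. Those 19 held a median of 2 reads in a median of 1 embryo, and 1 of them was read in control 37. In morulae the authors' deposited table has 2 of 43 members higher and none lower at that p, where 1.9% and 3.87% of genes are.

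Host genes ranged widely in depth, from 30 to 68031 blastocyst reads for the 24 snoRNA hosts (median 12582) and from 5 to 383164 for the 68 microRNA hosts (median 1918). None of the hosts tested passed. In blastocysts 20 of 24 snoRNA host genes were tested, of which 17 had a positive and 3 a negative change, with a median of 0.19, where 62.3% of all genes were positive. Without control 12 and knockout 57 these counts were 9 and 11, with a median of -0.01, where 45.8% of all genes were positive. RACK1 had 0.13 ± 0.22 and RPL7A -0.03 ± 0.23 on the log2 scale. Of the microRNA hosts, 34 of 68 were tested, with a median of 0.15, and 0.02 without those embryos. In morulae the medians were -0.35 for 19 snoRNA hosts and -0.30 for 35 microRNA hosts, beside -0.34 over all genes. Without knockouts 21 and 49 they were -0.17 and -0.14, beside -0.06. All 9 ribosomal protein genes that host snoRNAs had a negative change in morulae, with a median of -0.52, where 69.2% of all genes had one. Without knockouts 21 and 49 it was 8 of the 9, with a median of -0.28, where 53.1% of all genes had one. In blastocysts 6 of the 9 had a positive change, where 62.3% of all genes had one. It was 1 of the 9 without control 12 and knockout 57, where 45.8% of all genes had one. The summed embryo markers were also lower in knockout morulae, and their part in the morula changes of the hosts was not tested.

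None of the tested genes for the proteins that make, bind or degrade these RNAs passed either. Their counts stand beside 62.3% of all genes positive in blastocysts and 69.2% negative in morulae. Over all genes these shares were 45.8% and 53.1% without the libraries that stood apart. Of 24 genes for snoRNA-protein assembly, 20 were tested in blastocysts (13 with a positive and 7 with a negative change, median 0.14) and 18 in morulae (3 and 15, median -0.38). Without the libraries that stood apart these counts were 7 and 13 (median -0.07) and 9 and 9 (median 0.01). The smallest p in blastocysts belonged to SNU13, which binds the C/D box, at -0.39 ± 0.25, with 9.25 ± 2.03 RPKM in 9 knockouts and 13.3 ± 7.02 in 17 controls (SD). The H/ACA proteins NHP2 and NOP10 had 0.71 ± 0.53 and -0.79 ± 0.60, and 0.20 and -0.09 without control 12 and knockout 57. In morulae NPM1, a nucleolar chaperone, had -2.23 ± 1.01, with 5.89 ± 6.402 RPKM in 4 knockouts and 21.2 ± 7.22 in 4 controls (SD; limma-trend p = 0.0534, adjusted p = 0.729), and -1.68 ± 0.69 without knockouts 21 and 49 (adjusted p = 0.372). PHAX, an export adaptor for small nuclear RNA, had -0.97 ± 0.59 and the H/ACA protein GAR1 -1.14 ± 0.69. Without the libraries that stood apart, SNU13 had -0.22 and PHAX -0.50.

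Of 24 genes for microRNA processing, 7 were tested in blastocysts (5 positive and 2 negative, median 0.09) and 6 in morulae (1 and 5, median -0.70). Without the libraries that stood apart they were 2 and 5 (median -0.09) and 2 and 4 (median -0.36). DGCR8, the partner of DROSHA, had 0.38 ± 0.28 in blastocysts, TARBP2, a partner of DICER1, 0.33 ± 0.36, and LIN28A, which blocks let-7 maturation, -0.22 ± 0.27. Without control 12 and knockout 57 they had 0.08, -0.10 and -0.23. In morulae RAN, the GTPase of nuclear export, had -2.07 ± 1.23, SRRT -1.16 ± 0.69 and the cap-binding gene NCBP2 1.39 ± 1.12. Without knockouts 21 and 49, RAN had -1.63 ± 0.35 (limma-trend p = 0.00304, adjusted p = 0.136), SRRT -0.91 and NCBP2 1.95. That fit was chosen after seeing the data and held only 2 knockouts. Of its 5021 genes, 448 were lower and 218 higher at an unadjusted p under 0.05. Of 18 genes for the exosome and nuclear RNA surveillance, 14 were tested in blastocysts (7 and 7, median 0.02) and 13 in morulae (6 and 7, median -0.44), or 8 and 6 (median 0.04) and 7 and 6 (median 0.04) without the libraries that stood apart. EXOSC4, EXOSC9 and MPHOSPH6 had 0.76 ± 0.54, -0.30 ± 0.23 and 0.35 ± 0.26 in blastocysts, and EXOSC1, RBM7 and EXOSC5 had 1.49 ± 0.70, -0.82 ± 0.50 and -1.04 ± 0.67 in morulae. Without those libraries the values were 0.23, -0.32 and 0.26, and 1.81, -0.51 and -0.40.

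Other short structural RNAs of the tables gave a scale for these values. There were 174 such genes, with 18910 blastocyst reads and 2322 morula reads. The 2 genes for 5.8S ribosomal RNA held 14846 of the blastocyst reads, 12 genes for 7SK RNA 2262 and 22 genes for the signal recognition particle RNA 856. The 64 genes for the spliceosomal U6 RNA held 314. The 174 genes include 5 for U3 and 1 for U8, which are C/D box snoRNAs that the rule on symbols does not reach, with 58 and 8 blastocyst reads. A further 249 blastocyst genes and 103 morula genes of at most 210 bases had no symbol, and these also fall outside that rule.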

How the data were processed

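The authors deposited RPKM values per gene and embryo, for blastocysts and for morulae, with their own log2 fold change, p-value and FDR per gene. The submitters' processing notes name FastQC, featureCounts, edgeR and the build ARS-UCD1.2; aligner, versions and strand setting are not given in the sources used here. The morula table does not state its unit, and RPKM was inferred from its values. Multiplying RPKM by gene length and dividing by the smallest non-zero value of the embryo gave whole reads for 100% of values (tolerance 0.01 reads). The tables were normalized separately, so no test was made across stages.

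Genotype was tested on log2(RPKM + 1) by limma-trend (limma 3.58.1 under R 4.3.3). The model held sex as a term, robust empirical Bayes moderation, two-sided p and Benjamini-Hochberg adjustment over all tested genes at 0.05. A fold on this scale understates changes of genes with RPKM near or under 1, but not those of most short members. At 70 bases, 1 read was worth a median of 61.0 RPKM in knockout blastocysts and 17.1 in control blastocysts. A single read therefore moved a short member far on this scale, and mostly further in shallow libraries. A gene was kept where 9 blastocysts, or 4 morulae, reached an RPKM of 1. The test was tested on simulated data with 200 changed genes, and it recovered more of them in blastocysts than in morulae. The changed genes were drawn from the best-read genes and no simulated embryo stood apart, so this does not bear on thinly read members. Voom on recovered reads stands in for a count test, but its values for genes unread in many embryos depend on depth. Sex and genotype came from the labels; control 72 is male by its title and female by its column name, and the title was used.

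The members and gene lists were chosen with earlier results of these data known. Named are the members with most reads, those with the smallest p, those read in at least 90% of embryos, their hosts, and 3 genes with the smallest p per list. Hosts are genes whose deposited span contains the member. No sequences were used. Expected numbers of members at equal depth are hypergeometric. Python 3.11.15, pandas 2.3.3, scipy 1.17.1 and matplotlib 3.10.9 were used.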

Additional observations from a re-analysis of the deposited data

Results flagged for a closer look

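In groups of 4 to 10 embryos, 23 sets of values were examined for 1 embryo standing apart (Dixon's test at 95%, which flags about 1 set in 20 by chance). Sets in which as many embryos held no read as held one, or more, were left out. Knockout blastocyst 57, the shallowest of its stage, had 134 RPM in members other than bta-mir-2887-1, where the other 8 knockouts had 35.3 to 67.9. The same embryo had 106 reads of the unnamed gene per 100 reads of bta-mir-2887-1 on chromosome 2, where the others had 33.5 to 52.3. It also had 22.3 RPM of bta-mir-1843, from 1 read, where the others had 0 to 3.46. Knockout blastocyst 3 had 13.6 RPM of SNORD24 on chromosome 16, from 2 reads, where the others had 0 to 5.19.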

How the results depend on the processing

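No paired analysis was possible because embryo numbers are unique and groups share none. Counts of genes called in blastocysts and of members called in both stages were 0 under every alternative run. Of 12895 genes that voom tested in blastocysts, 667 were higher and 20 lower at an unadjusted p under 0.05. Among its 18 members 4 had such a p, all higher, and the median of all genes moved to 0.48. Knockout blastocysts were shallower by median, and voom gives unread genes a higher value in shallow libraries. The part of depth in these counts was not tested. Genes called in morulae rose from 0 to 44 with a pseudocount of 0.1, to 33 with no sex term, and, in alternatives chosen after seeing the data, to 3 without knockouts 21 and 49 and to 44 when scaled to the reads outside the members; the causes were not tested. Leaving out libraries under 100000 reads was not run for morulae, since it leaves 1 knockout, a female among male controls. The median of members expected at equal depth was 2.0 at a minimum of 3 reads in knockout blastocysts, control blastocysts and control morulae; at 100000 reads it was 7.45, 6.05 and 6.19, and 4.60 in the 1 knockout morula left. By any overlap, 113 members lay in another gene.

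Direction changed for some members named above, none of them called. In blastocysts under voom bta-mir-371 had 0.55, SNORD24 on chromosome 16 0.54, SNORD31 0.69, SNORD16 0.58, bta-mir-2469 0.71 and bta-mir-10181 0.16. These voom values carry the limit of depth given above. bta-mir-371 had 0.0036 on the RPM scale and 0.061 without libraries under 100000 reads, where SNORD24 on chromosome 16 had 0.00028. SNORD96 had -0.11 with a pseudocount of 0.1 and -0.41 without a sex term, and SNORD24 on chromosome 16 had -2.12 in morulae without one. Leaving out 1 embryo, values in blastocysts ran from -0.72 to 0.061 for bta-mir-371 (positive without knockout 3, 31, 57 or 58), -0.53 to 0.54 for SNORD96 (negative without knockout 3, 50, 59 or 75 or control 12, 18, 35, 51, 52, 66 or 72), -0.80 to 0.13 for SNORD24 on chromosome 16 (positive without knockout 4, 17, 57 or 58 or control 18) and -0.77 to 0.20 for bta-mir-2469 (positive without knockout 75). In morulae they ran from -0.84 to 2.06 and -1.06 to 4.44 for bta-mir-2887-1 on chromosomes 2 and 27 (negative without knockout 1 or control 54), and from -3.31 to 5.61 for SNORD24 on chromosome 11 (negative without control 73). Without knockout 1 or control 73, the morula genotype term rests on the other of these embryos against its own sex. Depth limits all but bta-mir-2887-1: a count of 0 allows up to 66.8 RPM in knockout blastocyst 57.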
